A study of Bos taurus with 14 samples.

Results

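Rab proteins are small GTPases that mark the membranes of a cell and bring vesicles to the right target. A Rab carries its label on a membrane while it holds GTP, recruits tethers, motors and adaptors there, and is returned to the cytosol by GDI once a GTPase-activating protein has switched it off. Rabs of the endocytic route sort, recycle or degrade what the surface takes up, and Rabs of the secretory route move cargo from the endoplasmic reticulum through the Golgi to the surface. In ruminants the trophoblast of the elongating conceptus secretes proteins into the uterine lumen and takes up nutrients from it, so both routes are in use. The members described here are all probe sets of the array whose single gene symbol is RAB followed by a number, with an optional letter from A to D and an optional last digit. This rule found 48 of 24016 probe sets and 39 of 9155 named genes. It leaves out 3 probe sets shared between a Rab gene and a neighbour, namely those of RAB9A with TCEANC and of RAB33A with AIFM1.

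RNA was measured in 14 Holstein conceptuses, the embryo with its membranes, flushed from recipient heifers on Day 15. The embryos came from superovulated donor cows inseminated with semen of 1 bull, were recovered on Day 6.5, graded by morphology and transferred in groups of 2 to 6. Grade 3 embryos gave 3 of the conceptuses (2 male, 1 female). The other 11 came from Grade 1 embryos, with 5 classed as long (1 male, 4 female), 5 as short (2 male, 3 female) and 1 male without a recorded length. Grade 1 short replicate 1 is called long in its source name and short in its length characteristic, and the characteristic was followed. RNA of each conceptus went to 1 Affymetrix bovine array, and in such bulk RNA a difference in a gene's signal cannot separate fewer cells of a type from less RNA per cell. Dams and recipients are not identified, so every p-value treats the conceptuses as unrelated and reflects the spread among these animals alone.

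Values are log2 expression as deposited. A gene with several probe sets is represented by the brightest, and "called" means an adjusted p under 0.05 in limma over all 24016 probe sets. Signals of different probe sets depend on their probes, so each gene is compared with itself across conceptuses and not with another gene. Trophectoderm markers were strong, as for a trophoblast-rich sample: IFNT2 averaged 14.5 over the 14 arrays and KRT18 also 14.5. The 8 measured trophectoderm markers averaged 11.90 to 12.00 in Grade 3, 11.89 to 11.98 in Grade 1 long and 11.58 to 11.90 in Grade 1 short conceptuses. The lowest of these levels, 11.58, belonged to Grade 1 short replicate 5, so that conceptus stood apart and results that rest on it are given without it too.

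Of the 39 Rab genes, 31 had a brightest probe set averaging 5 or more on the log2 scale and 8 were dimmer. RAB19, RAB26, RAB37, RAB3B, RAB3C, RAB40B, RAB29 and RAB9B were the dim ones, and 5 of these are secretory, 1 is endocytic and 2 are in neither class. The signal over the 14 conceptuses varied little for most members. The standard deviation ranged from 0.0422 for RAB11A to 0.762 for RAB27B, with a median of 0.158 against 0.153 for all named genes. The probe sets of RAB1A, RAB11A and RAB2A were the brightest of the family.

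RAB1A, which starts transport from the endoplasmic reticulum to the Golgi, measured 13.18, 13.17 and 13.26 in Grade 3 conceptuses. In Grade 1 long conceptuses it measured 13.29, 13.31, 13.16, 13.21 and 13.16, against 13.13, 13.14, 13.04, 12.95 and 13.00 in Grade 1 short ones. Every long value lay above every short value, but the difference of 0.17 ± 0.06 (SE) was not called (adjusted p = 0.132 in limma). With trended and robust eBayes it passed (adjusted p = 0.045). RAB11A, the main Rab of recycling endosomes, measured 13.14, 13.10 and 13.18 in Grade 3, 13.18, 13.15, 13.18, 13.08 and 13.14 in Grade 1 long, and 13.13, 13.11, 13.11, 13.13 and 13.21 in Grade 1 short conceptuses. Its groups overlapped throughout, with a long over short difference of 0.01 whose 95% interval ran from -0.11 to 0.12. The sign of so small a difference turned with arrays centred on their medians (-0.011) or quantile normalised once more (-0.0021).

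The first comparison set long against short conceptuses of the same embryo grade. RAB31, RAB5B and RAB2A rose in long conceptuses and RAB34 fell, while the other 35 Rab genes were not called. In probe sets this is 4 of 48 (8.33%), against 6.57% of all probe sets, of which 2.7% were higher and 3.87% lower. In genes it is 4 of 39 (10.3%), against 9.5% of all named genes, so the family was called at about the rate of the whole array. The median difference over the 39 genes was 0.04 in log2, against -0.03 over all named genes. By role, 2 of 18 endocytic genes rose and 1 fell, 1 of 16 secretory genes rose and 0 fell, and 0 of 5 remaining genes were called. The endocytic median was 0.05 and the secretory median 0.09, with ranges of -0.48 to 0.70 and -0.24 to 0.60. The secretory range lay inside the endocytic one, but both endocytic ends rest on placement. The high end of 0.70 was RAB31, which also works at the trans-Golgi network. The 1 secretory rise was RAB2A, which also works in fusion with lysosomes. The endocytic low end of -0.48 was RAB34, which also acts on lysosomes and cilia. The next lowest endocytic gene, RAB12 at -0.18, lay above the secretory low end of -0.24. Without Grade 1 short replicate 5 the medians were 0.026 (endocytic) and 0.045 (secretory), and without long replicate 4 the secretory median was 0.059. With probe sets averaging under 5 left out they were 0.084 (endocytic) and 0.17 (secretory). That filter drops 1 endocytic and 5 secretory genes.

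**Figure D1:**
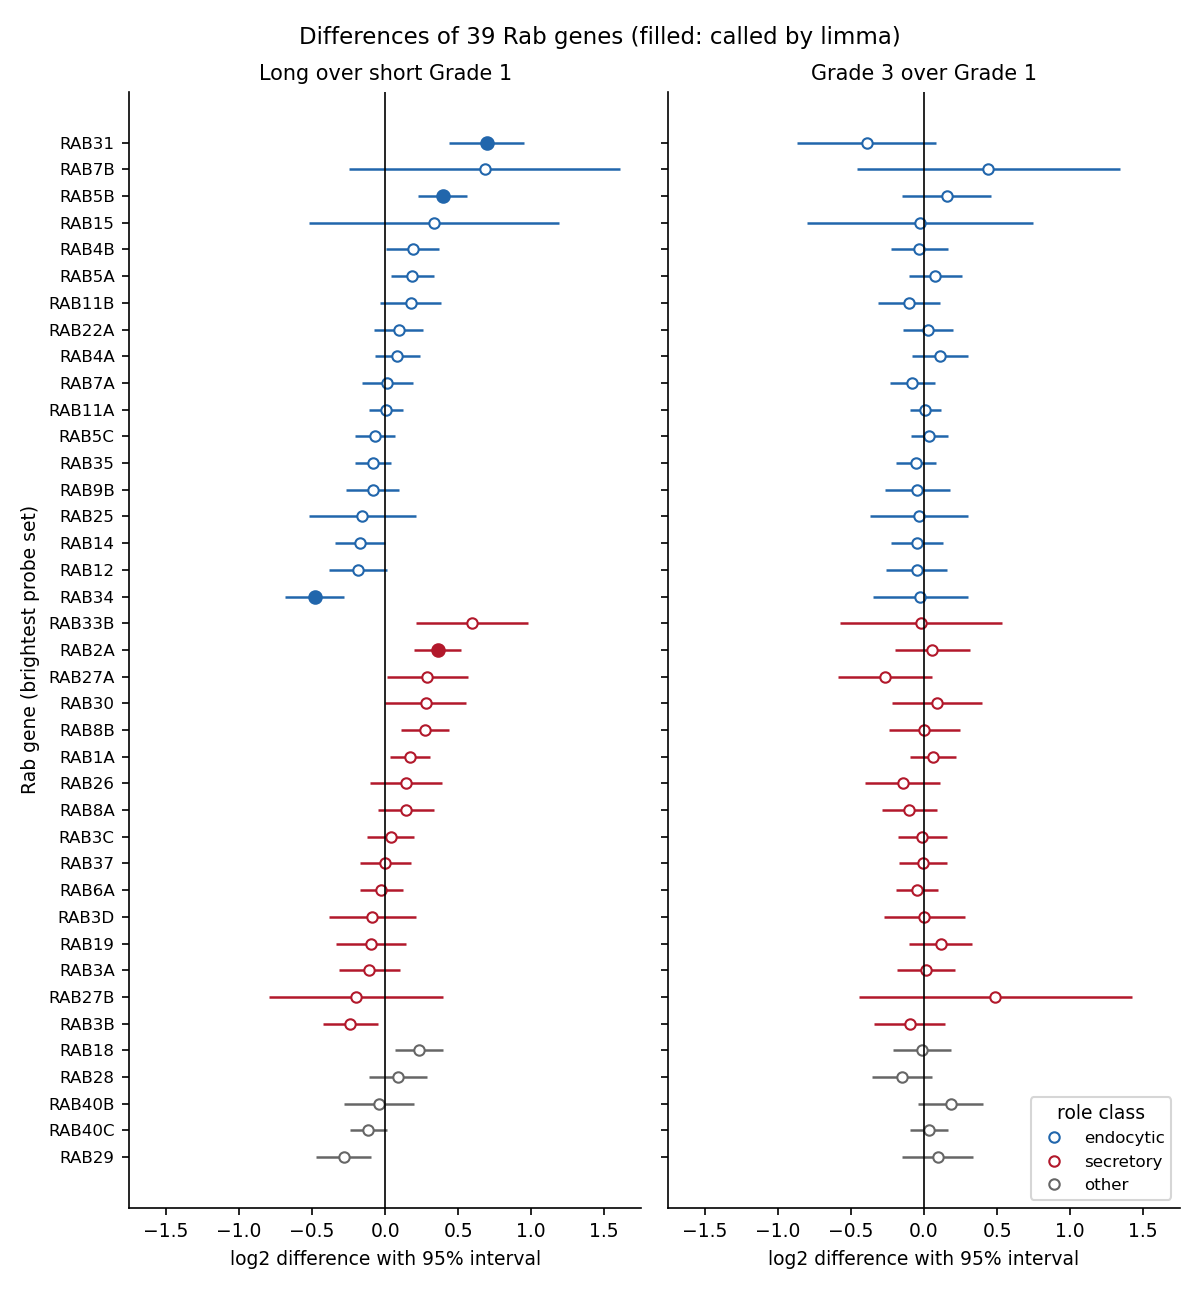
Log2 differences of the 39 Rab genes (points) with 95% intervals (lines) for long over short Grade 1 conceptuses (left, 5 and 5) and Grade 3 over Grade 1 (right, 3 and 11), by role class. Filled points were called by limma: RAB31, RAB5B and RAB2A to the right of 0 and RAB34 to the left for length, and none for grade.

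RAB31 belongs to the RAB5 subfamily and works between the trans-Golgi network and endosomes. It measured 8.16, 8.13, 7.60, 7.67 and 7.97 in Grade 1 long conceptuses, against 7.42, 7.21, 7.18, 7.15 and 7.10 in Grade 1 short ones. All long values were above all short values, and the conceptus with no length, at 7.71, lay within the long range. The difference was 0.70 ± 0.12 (SE), a 1.62-fold rise with adjusted p = 0.0117 in limma and a 95% interval of 0.44 to 0.95. This was the largest difference among the 39 Rab genes in either direction for length.

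RAB34 acts in macropinocytosis, in the positioning of lysosomes and in the building of primary cilia. In Grade 1 long conceptuses it measured 11.22, 10.93, 11.41, 11.33 and 11.32, against 11.67, 11.60, 11.75, 11.80 and 11.80 in Grade 1 short ones. The groups did not overlap, with long replicate 2 the lowest of all. RAB34 fell by 0.48 ± 0.09 (SE) on the log2 scale in long conceptuses (adjusted p = 0.0167 in limma; 95% interval -0.68 to -0.28). It was the sole Rab gene called in that direction.

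RAB5B is 1 of the RAB5 proteins, which drive the fusion of early endosomes. Its brighter probe set gave 9.72, 9.66, 9.66, 9.66 and 9.85 in Grade 1 long conceptuses, against 9.31, 9.26, 9.52, 9.35 and 9.14 in Grade 1 short ones. The groups were separate, the rise was 0.39 ± 0.08 (SE, adjusted p = 0.0182 in limma), and its 95% interval ran from 0.23 to 0.56. The dimmer RAB5B probe set, which averaged 4.15, differed by 0.17 ± 0.09 and was not called (adjusted p = 0.317). The paralogues RAB5A and RAB5C stood at 0.18 ± 0.07 (adjusted p = 0.13) and -0.07 ± 0.06 (adjusted p = 0.586). Whether the paralogues differ from each other in this response was not tested.

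RAB2A works between the endoplasmic reticulum and the Golgi and also in fusion with lysosomes. Grade 1 long conceptuses gave 11.81, 11.91, 11.85, 11.84 and 11.98 for it, against 11.73, 11.49, 11.43, 11.53 and 11.41 in Grade 1 short ones. The highest short value, 11.73, came from the conceptus whose labels disagree, and it still lay below every long value. RAB2A rose by 0.36 ± 0.07 (SE, adjusted p = 0.02 in limma; 95% interval 0.20 to 0.52). Its call was lost without long replicate 2, short replicate 4 or long replicate 5 (adjusted p = 0.0505, 0.051 and 0.0538), with differences of 0.33 or more in each case.

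**Figure D2:**
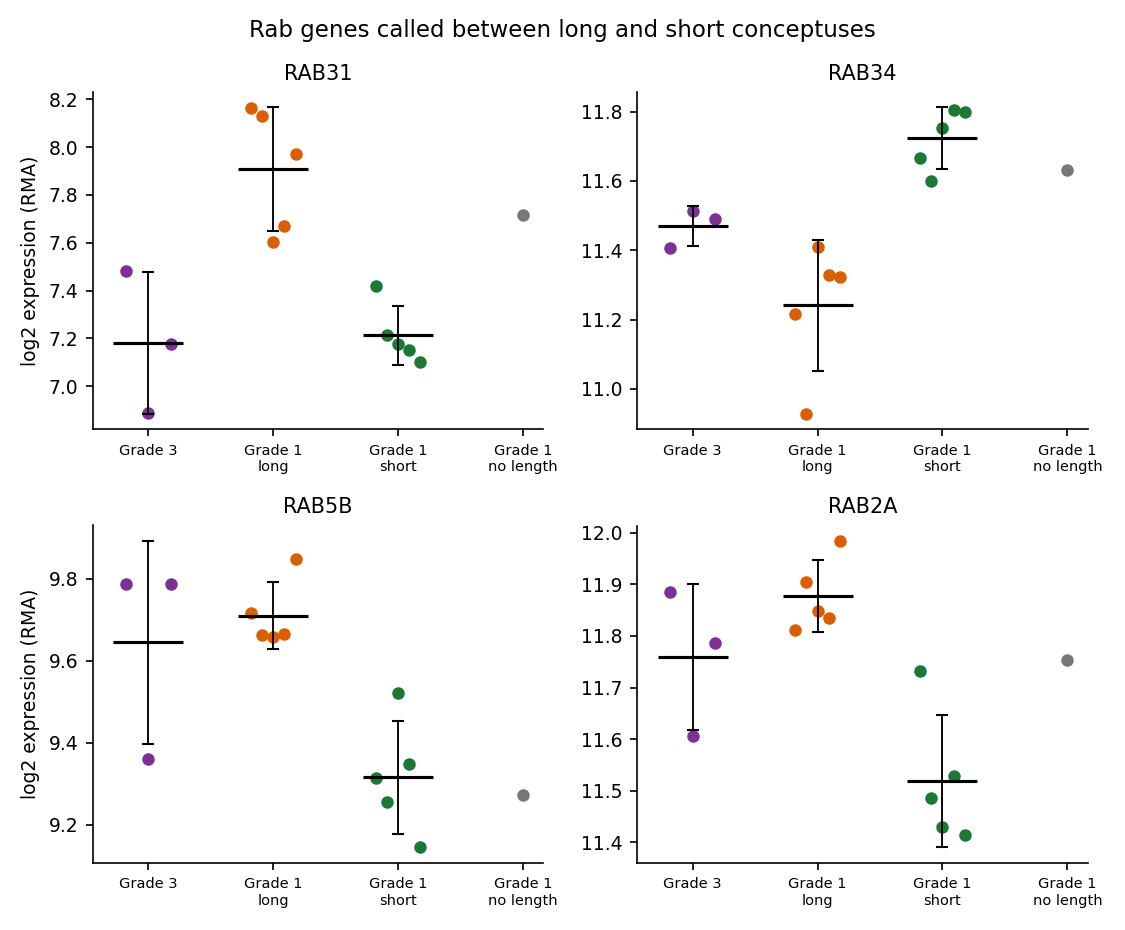
Log2 expression (vertical axis, not starting at 0) of RAB31, RAB34, RAB5B and RAB2A in each conceptus (points) by group, with the mean (bar) and SD (whiskers) of groups with more than 1 conceptus. Long and short Grade 1 conceptuses do not overlap in any of the 4 genes, and Grade 3 lies near short for RAB31 but mostly near long for RAB5B and RAB2A.

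Without Grade 1 short replicate 5, the differences were 0.67 for RAB31, -0.46 for RAB34, 0.35 for RAB5B and 0.33 for RAB2A, and all 4 kept their calls in limma (adjusted p = 0.0282, 0.0377, 0.0375 and 0.0464). Counting the conceptus with disagreeing labels as long left 2 of the calls, those of RAB31 and RAB2A, with adjusted p = 0.0746 for RAB34 and 0.106 for RAB5B. Over all probe sets 2.05% were called in that fit. The titles carry 7 different prefixes, left unexplained in the labels, and 2 of these hold both lengths. Inside the prefix with 2 long conceptuses and 1 short, the differences were 0.93 for RAB31, -0.53 for RAB34, 0.43 for RAB5B and 0.37 for RAB2A. Inside the prefix with 1 long and 2 short they were 0.44, -0.37, 0.22 and 0.37 in the same order of genes. With the prefix as a fixed block no Rab gene was called, with 0.68, -0.45, 0.33 and 0.37 and adjusted p = 0.0697, 0.101, 0.174 and 0.106, and over all probe sets 0.466% were called in that fit.

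Of the 8 trophectoderm markers, TFAP2A alone was called and rose by 0.38 (adjusted p = 0.045 in limma) in long conceptuses, a call lost in 11 of 18 alternatives, among them 8 of 10 fits that each omit a conceptus. Markers of cells that might have come along with a flushed conceptus gave the following levels. The 8 measured endometrial epithelium markers averaged 4.24 to 4.58 in Grade 1 long and 4.13 to 4.45 in Grade 1 short conceptuses, with 0 of 8 called, and PAX8, ESR1 and PGR averaged 4.88, 3.43 and 3.88 over all arrays. The highest of the 8 was MUC1, at 6.68 over all arrays and 0.55 ± 0.20 (SE, adjusted p = 0.128 in limma) in long over short conceptuses. The 11 blood and immune markers averaged 4.57 to 4.81 in long and 4.66 to 4.88 in short conceptuses, and PTPRC, carried by all leukocytes, averaged 3.05. Others of the 11 were brighter, among them CD8A, which averaged 5 or more over all arrays. Of these 11, CD8A alone was called and fell by 0.84 ± 0.20 (SE, adjusted p = 0.0322 in limma) in long conceptuses. It lost that call in 7 of 10 fits that each omit a conceptus. Erythroid markers averaged 3.99 to 4.11 in long and 4.01 to 4.12 in short conceptuses, with 0 of 7 called. The part of such cells in the Rab differences was not tested.

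Several Rab genes fell just outside the threshold for length. RAB8B, which carries cargo from the Golgi to the surface, measured 10.21, 10.32, 10.12, 10.14 and 10.06 in Grade 1 long conceptuses, against 9.98, 10.05, 9.89, 9.75 and 9.82 in Grade 1 short ones. In this brighter probe set the groups did not overlap, and the difference was 0.27 ± 0.08 (SE, adjusted p = 0.0553 in limma). It passed in 5 of 18 alternatives, with adjusted p = 0.0257 when sex was a covariate. The dimmer RAB8B probe set, which averaged 6.71, overlapped between the groups and stood at 0.15 ± 0.10 (adjusted p = 0.43 in limma). RAB33B, a Golgi Rab that also binds the autophagy machinery, stood at 0.60 ± 0.18 (adjusted p = 0.0656), with 8.50, 8.76, 7.80, 8.07 and 8.20 in long against 7.76, 7.26, 7.86, 7.88 and 7.60 in short conceptuses. Long replicate 3 was the one long value inside the short range. RAB29, of the trans-Golgi network, stood at -0.28 ± 0.09 (adjusted p = 0.0737), at a dim signal that averaged 3.51 over all arrays. RAB18, found on the endoplasmic reticulum and lipid droplets, stood at 0.23 ± 0.08 (adjusted p = 0.092).

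In all, 6 of 48 Rab probe sets (12.5%) did not overlap between long and short conceptuses, 5 higher and 1 lower, against 8.42% of all probe sets. These were the called probe sets of RAB31, RAB34, RAB5B and RAB2A together with RAB1A and the brighter probe set of RAB8B. An unadjusted p under 0.05 was reached by 16 of 48 Rab probe sets (33.3%), against 22% of all probe sets. Counted by gene, 5 of 39 Rab genes were higher and 1 lower without overlap, against 328 and 827 of 9155 named genes. An unadjusted p under 0.05 was reached by 15 of 39 Rab genes and 2643 of 9155 named genes. Rab probe sets were less often dim than the array as a whole: 22.9% averaged under 5, against 41.7% of all probe sets. Among the 37 Rab probe sets that averaged 5 or more, a fit restricted to such probe sets called 6 (16.2%), against 14.3% of the 13995 probe sets in it. That fit added RAB8B and RAB33B to the 4 genes.

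The early endosome group held RAB5A, RAB5B, RAB5C, RAB22A, RAB31 and RAB34, of which 2 rose, 1 fell and 3 were not called. That is 50% of a group of 6, drawn up with earlier results of these data known, against 9.5% of all named genes. The 1 fall was that of RAB34, which also acts on lysosomes and cilia, so it rests on that placement. The rise of RAB31, which also works at the trans-Golgi network, rests on its placement in the same way. RAB22A, which sorts cargo at early endosomes and is related to RAB31, stood at 0.09 ± 0.08 (SE). The recycling group of 9 genes had 0 called, with differences between -0.18 and 0.33. Within it RAB4A and RAB4B, of fast recycling, stood at 0.08 and 0.19, RAB11B at 0.17, RAB14 at -0.17, RAB12 at -0.18 and RAB35 at -0.08. RAB25, the epithelial relative of RAB11A, stood at -0.16 ± 0.17. Long replicate 2 had 9.53 for RAB25 against 10.24 to 10.41 in the other long conceptuses. In the late endosome and lysosome group, RAB7A, which directs late endosomes to lysosomes, stood at 0.01 ± 0.08 and the X-linked RAB9B at -0.08, with 0 of 3 called.

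Of the 6 measured Rab genes of the endoplasmic reticulum and Golgi, RAB2A alone was called (16.7%, against 9.5% of all named genes). RAB6A, which works in transport within and back from the Golgi, stood at -0.03 ± 0.07 (SE) in its brightest probe set and 0.13 ± 0.11 in the other. RAB30, a Golgi Rab, stood at 0.28 ± 0.13 (adjusted p = 0.227 in limma). None of the 10 Rab genes between Golgi and surface was called. RAB27A, which docks secretory granules, stood at 0.29 ± 0.13 in its brighter and 0.38 ± 0.15 in its dimmer probe set, with adjusted p = 0.212 and 0.16. RAB8A, a relative of RAB8B, stood at 0.14 ± 0.09. The regulated-exocytosis genes RAB3A, RAB3B, RAB3C and RAB3D stood at -0.11, -0.24, 0.04 and -0.09. Among the genes in neither class, RAB28, RAB40B and RAB40C stood at 0.09, -0.04 and -0.12.

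For 33 of the 39 genes the 95% interval of the long over short difference lay within a 1.5-fold change in either direction (0.585 in log2). The exceptions were RAB31, RAB34, RAB33B, RAB7B, RAB15 and RAB27B. Half-widths of these intervals ranged from 0.116 to 0.929 around a median of 0.188. Of the 9 Rab genes with 2 probe sets, the pair had the same sign in all but RAB6A and RAB7A, and neither member of those pairs was called.

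The genes with the widest intervals varied strongly within groups, and they were singled out after their values were seen. RAB7B, a late endosome Rab, measured 7.47, 7.87, 6.79, 7.46 and 6.15 in Grade 1 long conceptuses, against 7.97, 6.40, 6.43, 5.95 and 5.59 in Grade 1 short ones. The highest short value again came from the conceptus whose labels disagree. The difference of 0.68 ± 0.42 (SE) was not called (adjusted p = 0.391 in limma), and it was 1.06 without that conceptus. RAB15, an endosomal Rab best known from neurons, gave 8.97, 8.41, 8.26, 7.58 and 8.63 in long against 8.54, 8.80, 7.48, 8.65 and 6.70 in short conceptuses. Its difference of 0.33 ± 0.39 was -3.6e-05 without Grade 1 short replicate 5. RAB27B, the relative of RAB27A in granule and exosome release, measured 5.62, 5.83, 6.71, 5.65 and 6.84 in long against 6.18, 6.83, 6.24, 6.63 and 5.77 in short conceptuses. The long values of RAB27B, 5.62 to 6.84, enclosed the short ones.

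**Figure D3:**
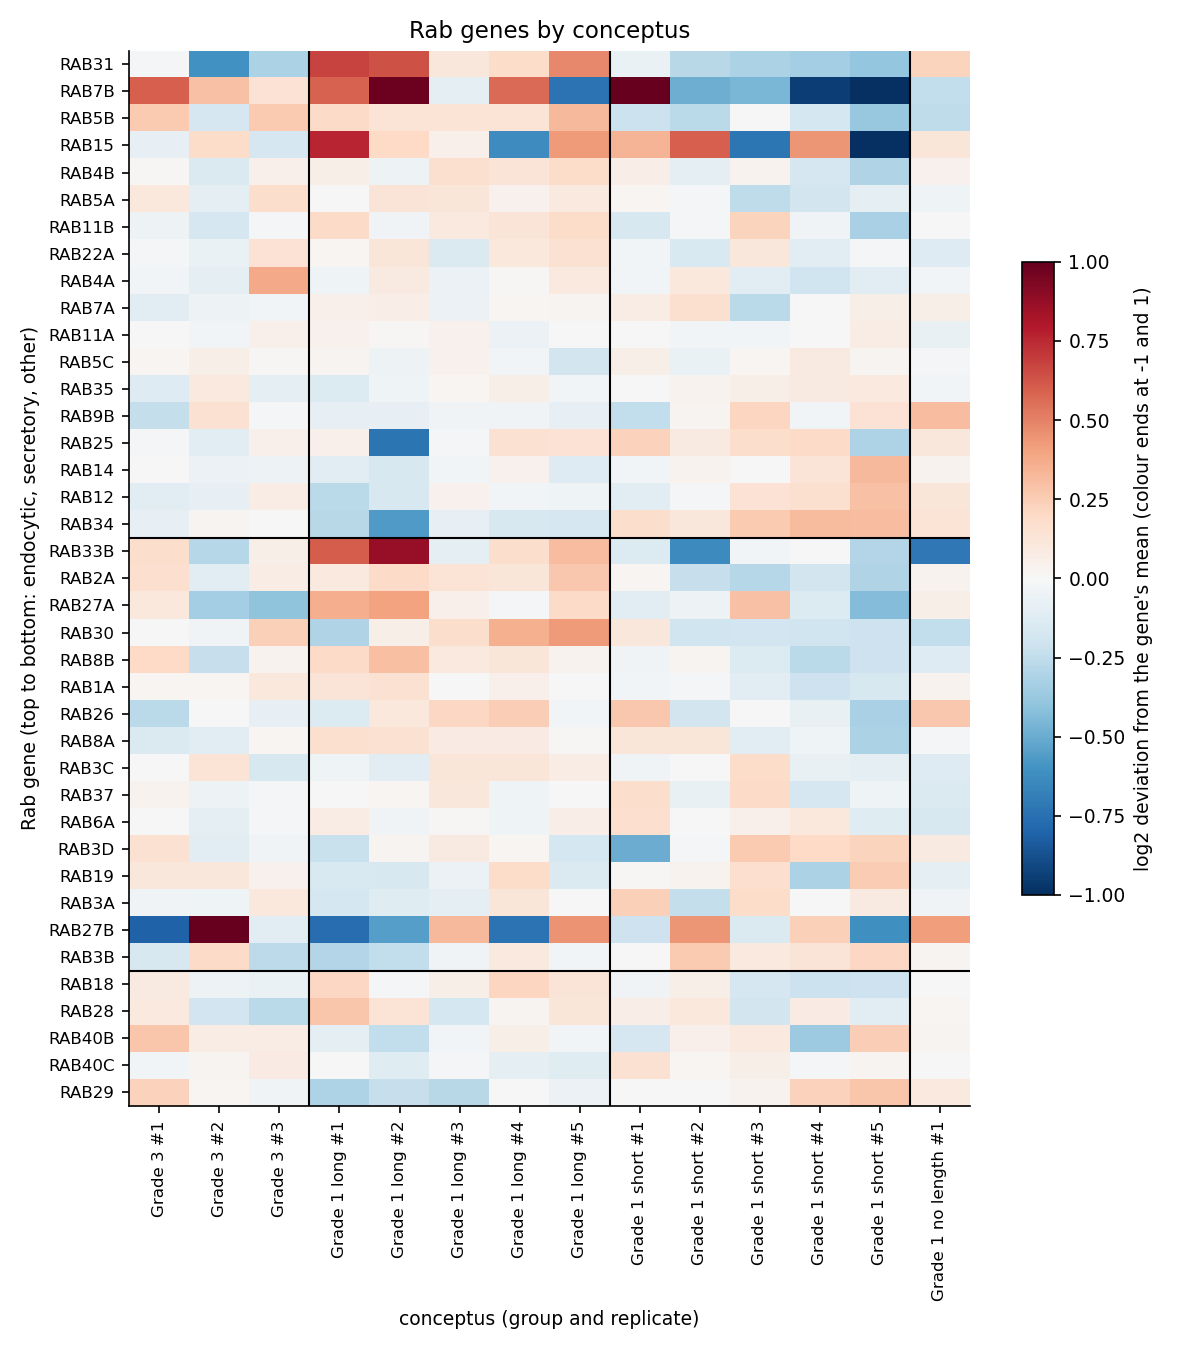
Deviation of each Rab gene (rows, by role class) from its own mean over the 14 conceptuses (columns, by group), in log2 with the colour scale ending at -1 and 1. RAB31 and RAB34 run in opposite directions across long and short Grade 1 conceptuses, whereas RAB7B, RAB15 and RAB27B vary within groups, with 8.45 for RAB27B in Grade 3 replicate 2.

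Averaged over its genes after each was centred on its own mean, the endocytic class lay between 0.02 and 0.10 in Grade 1 long conceptuses and between -0.19 and 0.06 in Grade 1 short ones. The secretory class lay between -0.03 and 0.09 in long and between -0.15 and 0.03 in short conceptuses. Both classes had their lowest value in Grade 1 short replicate 5, the conceptus with the lowest trophectoderm markers. Without it the short conceptuses lay between -0.05 and 0.06 for the endocytic class and between -0.06 and 0.03 for the secretory class.

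The second comparison set the 3 Grade 3 conceptuses against the 11 Grade 1 conceptuses. No title prefix held both grades, so grade and title prefix cannot be told apart. limma called 0 of 48 Rab probe sets, as it did 0 of all 24016 (0%), and 1 Rab probe set had an unadjusted p under 0.05, against 5.06% of all probe sets. That was the dimmer probe set of RAB5B, at 0.37 ± 0.13 (SE, adjusted p = 0.886 in limma), while the brighter stood at 0.15 ± 0.14. The median difference was -0.03 over the endocytic and -0.0029 over the secretory genes, against -0.0019 over all named genes. No Rab gene separated Grade 3 from Grade 1 without overlap, against 0.554% of all probe sets. For 34 of 39 genes the 95% interval lay within a 1.5-fold change in either direction, and the exceptions were RAB15, RAB27A, RAB27B, RAB31 and RAB7B.

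The 4 Rab genes with the smallest p for grade are given as measured, and none passed. RAB27A gave 6.51, 6.06 and 6.00 in Grade 3, against 5.97 to 6.81 with a median of 6.45 in Grade 1. The difference was -0.27, with a 95% interval of -0.59 to 0.05, and it was -0.43 without Grade 3 replicate 1 and -0.17 without Grade 3 replicate 3. RAB31 gave 7.48, 6.89 and 7.18 in Grade 3, against 7.10 to 8.16 with a median of 7.60 in Grade 1, a difference of -0.39 (95% interval -0.87 to 0.08) that was -0.25 without Grade 3 replicate 2. RAB40B, whose family works with a ubiquitin ligase, gave 3.29, 3.09 and 3.09 in Grade 3, against 2.65 to 3.26 in Grade 1. Its difference was 0.18 (95% interval -0.04 to 0.40) at a signal near the lowest value of the array, 2.23, and was 0.11 without Grade 3 replicate 1. RAB28, linked to cilia, gave 9.09, 8.80 and 8.72 in Grade 3, against 8.81 to 9.27 with a median of 9.05 in Grade 1, a difference of -0.15 (95% interval -0.36 to 0.06). It was -0.26 without Grade 3 replicate 1 and -0.077 without Grade 3 replicate 3.

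**Figure D4:**
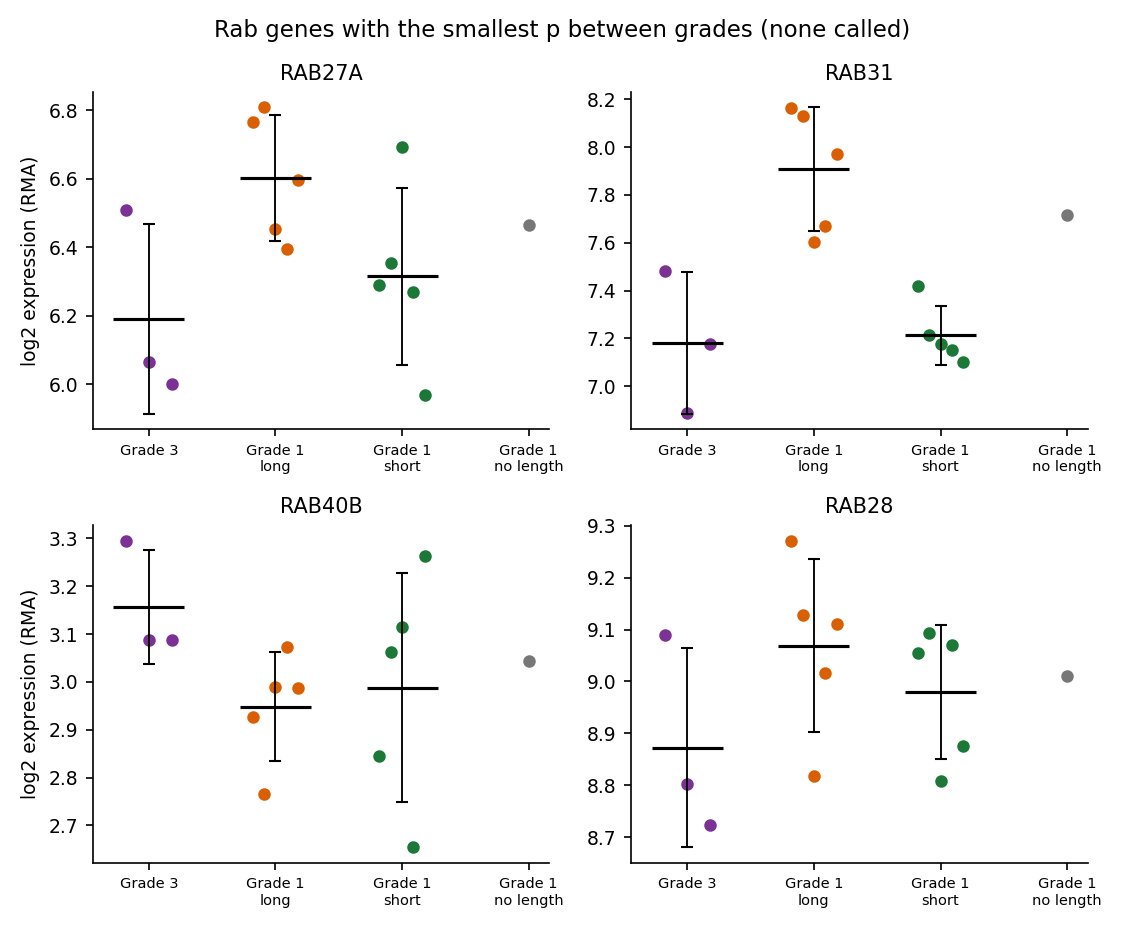
Log2 expression (vertical axis, not starting at 0) of the 4 Rab genes with the smallest p between Grade 3 and Grade 1, in each conceptus (points) by group, with the mean (bar) and SD (whiskers) of groups with more than 1 conceptus. Grade 3 overlaps the range of all Grade 1 conceptuses in each gene, and none was called.

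Because length varied among Grade 1 conceptuses, Grade 3 was also set against each length group in a fit of all 14 arrays. Grade 3 conceptuses were not classed by length and shared no title prefix with Grade 1. Grade, length and title prefix therefore cannot be told apart in these comparisons. limma called 0 Rab probe sets in either comparison (0% of all probe sets in both), with an unadjusted p under 0.05 in 4 of 48 against long (9.06% of all probe sets) and 5 of 48 against short (10.6%). The comparisons share the Grade 3 conceptuses, so their values are given side by side. RAB31 differed by -0.73 ± 0.15 (SE, adjusted p = 0.253) between Grade 3 and Grade 1 long and by -0.03 ± 0.15 (adjusted p = 0.96) between Grade 3 and Grade 1 short. All 3 Grade 3 values of RAB31 lay below all long values. In all, 3 of 48 Rab probe sets did not overlap between Grade 3 and long (7.14% of all probe sets) and 2 of 48 between Grade 3 and short (6.08%). The first were those of RAB31 and the dimmer one of RAB27A, both lower in Grade 3, and RAB40B, which was higher, and the second were RAB1A, higher in Grade 3, and RAB34, lower. With sex as a covariate the RAB31 difference from long was -0.86 and passed (adjusted p = 0.027 in limma), the single Rab call in that fit, where 0.204% of all probe sets passed.

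The other genes called for length ranged differently in Grade 3. RAB5B gave 9.79, 9.36 and 9.79 in Grade 3, a difference of -0.06 ± 0.11 (SE) from long and 0.33 ± 0.11 from short (adjusted p = 0.894 and 0.341 in limma). RAB2A gave 11.89, 11.61 and 11.79, with -0.12 ± 0.09 from long and 0.24 ± 0.09 from short (adjusted p = 0.732 and 0.365). Grade 3 replicate 2 was the lowest of its group for RAB31, RAB5B and RAB2A. RAB34 gave 11.41, 11.51 and 11.49, with 0.23 ± 0.10 from long and -0.25 ± 0.10 from short (adjusted p = 0.524 and 0.39). All 3 RAB34 values lay below all short values, and none of these differences was called. RAB27B gave 5.58, 8.45 and 6.28 in Grade 3, so that replicate 2 stood above every other conceptus of the study, whose highest was 6.84.

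Sex was uneven between the groups, so males were set against females with grade as a covariate. limma called 0 of 48 Rab probe sets, against 0.362% of all probe sets, and 1 Rab probe set had an unadjusted p under 0.05, against 8.03%. RAB9B, the X-linked member, stood at -0.07 in males over females (adjusted p = 0.911).

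Of 135 listed genes that load, switch or read Rab proteins, 72 were measured. For length 2 rose and 1 fell (4.17%), against 9.5% of all named genes, with a median difference of 0.02. OPTN, an adaptor that RAB8 proteins recruit, measured 8.99, 8.79, 8.83, 8.77 and 8.79 in Grade 1 long conceptuses, against 8.48, 8.12, 8.42, 8.48 and 8.53 in Grade 1 short ones. These did not overlap, and OPTN rose by 0.43 ± 0.08 (SE, adjusted p = 0.0192 in limma). WDR44, a RAB11 effector, rose by 0.44 ± 0.10 (adjusted p = 0.0306), and HPS4, a subunit of the exchange factor for RAB32 and RAB38, fell by 0.35 ± 0.09 (adjusted p = 0.0444). Omitting a single conceptus ended the call of WDR44 in 6 of 10 fits and that of HPS4 in 9 of 10. With the disagreeing label read as long, all 3 calls were lost (adjusted p = 0.0714 for OPTN, 0.192 for WDR44 and 0.203 for HPS4 in limma), and likewise with the prefix block (0.0697, 0.183 and 0.204). With single conceptuses omitted, OPTN kept its call in all 10 fits. Adjusted p there reached 0.0748 for WDR44 (long replicate 5 omitted) and 0.0992 for HPS4 (long replicate 2 omitted).

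By role, 0 of 21 GTPase-activating proteins, 1 of 17 exchange factors, 2 of 31 effectors and 0 of 3 genes of prenylation and membrane extraction were called for length. Of all named genes 9.5% were called. TBC1D4, the GTPase-activating protein known from insulin-regulated glucose transporter traffic, stood at -0.63 ± 0.18 (SE, adjusted p = 0.0556 in limma). RILPL2 stood at 0.72 ± 0.24 (adjusted p = 0.0967), and GDI2, which extracts Rabs from membranes, at 0.01 ± 0.06. Between grades 0 of the 72 were called, as were 0 of all 9155 named genes. An unadjusted p under 0.05 was reached by 3 of the 72 and by 371 of the 9155. VPS18, of the lysosomal tethering complex that RAB7A recruits, had the smallest p of the 3. It stood at 0.25 ± 0.09 (adjusted p = 0.886 in limma) in Grade 3 over Grade 1.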

How the data were processed

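The deposited values are log2 signals per probe set. Per the submitters' processing notes, the authors used RMA and Affymetrix Expression Console. Software versions, and whether all arrays were normalised in a single run, are not stated here. RMA compresses small differences at low signal. Per the labels, 250 ng of RNA per conceptus was labelled. After 112 array controls were left out, 24016 probe sets remained, with array medians of 5.62 to 5.72. Arrays carry no read depth, and their number limits the precision. Symbols came from the platform annotation, and all 48 Rab probe sets matched the RefSeq table of ARS-UCD2.0 by Entrez number with 0 symbols changed; no sequence or coordinate was used.

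Each comparison was fitted on all probe sets with limma 3.58.1 (lmFit, eBayes) in R 4.3.3, two-sided, with Benjamini-Hochberg adjustment. The length fit used the 10 long and short arrays, and the others used all 14. The fits were tested on simulated data. The design text names 4 Grade 1 conceptuses for the grade comparison without saying which, so all 11 were used. Members, role lists (by the best known compartment, mostly from human and rodent cells) and tests were chosen with earlier results of these data known. Values per conceptus are given for Rab genes called for length, the 4 with the smallest p for grade, the 3 brightest, and, chosen after their values were seen, for genes just outside the threshold or with the widest spread. Alternatives were another normalisation, a filter on dim probe sets, trended and robust eBayes, sex as a covariate, the title prefix as a block, the disagreeing label, and leaving out each conceptus.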

Additional observations from a re-analysis of the deposited data

Results flagged for a closer look

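In 5 of 78 groups (39 Rab genes, long and short), 1 conceptus lay far from the other 4 by Dixon's test; chance flags about 1 group in 20. RAB11A was 13.21 in Grade 1 short replicate 5, against 13.11 to 13.13 in the other short conceptuses. RAB25 was 9.95 in the same conceptus, against 10.35 to 10.49. In Grade 1 long replicate 2 RAB25 was 9.53, against 10.24 to 10.41 in the other long conceptuses. RAB19 was 3.29 in Grade 1 long replicate 4, against 2.95 to 3.05. RAB30 was 6.49 in Grade 1 short replicate 1, the conceptus whose labels disagree, against 6.17 to 6.19 in the other short ones.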

How the results depend on the processing

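For length, 4 Rab probe sets were called in the main fit, where 6.57% of all probe sets were called. The count was 8 with sex as a covariate (10% of all probe sets) and 6 with trended and robust eBayes (7.46%). It was 2 with the disagreeing label read as long (2.05%) and 0 when title prefixes formed a fixed block (0.466%). With 1 conceptus left out in turn it was 3 to 5 (1.92% to 7.07% of all probe sets). Sex as a covariate added RAB18, RAB12, RAB29 and RAB8B, and trended and robust eBayes added RAB1A and RAB8B. The secretory median was 0.17 over the genes left when probe sets averaging under 5 were dropped, a set without the 5 dim secretory genes, and 0.045 to 0.11 with 1 conceptus left out, and the endocytic median stayed between 0.03 and 0.08 over 19 alternatives. For Grade 3 over Grade 1 long, the count of 0 became 1 with sex as a covariate, where 0.204% of all probe sets were called. For Grade 3 over Grade 1 the count was 0 in all 20 alternatives. The signs of RAB31, RAB34, RAB5B and RAB2A held in 18 alternatives each, but most of these could not turn a sign. Long and short values did not overlap in these genes, so leaving out 1 conceptus cannot reverse them. Trended and robust eBayes, the filter on dim probe sets and the fit of all 14 arrays leave the difference itself unchanged. RAB31, RAB34 and RAB5B kept their calls in all 10 fits with 1 conceptus left out. RAB11A turned to -0.011 with arrays centred, to -0.0021 when quantile normalised once more, and lay between -0.0022 and 0.025 with 1 conceptus left out. RAB15 lay between -3.6e-05 and 0.53 with 1 conceptus left out. The causes of these shifts were not tested. No paired analysis by replicate number was possible because the labels give none shared between groups, and the title prefix was the only block fitted. Low signal limits RAB40B and the other members averaging under 5.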
